A study of Mus musculus with 11 samples.

Results

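The cell cycle and DNA replication genes described here are 48 genes of the replication machinery, the G1/S transition and mitosis. They were chosen by name, with earlier results of these data known. All 48 have a row in the table of counts, out of 24421 rows. In 47 of them the counts passed the filter on low counts, as they did in 13916 genes in all; the exception was Cdc45. The study asked how loss of Prdm3 (listed as Mecom) and Prdm16, related genes for DNA-binding regulators with a PR domain, changes gene expression in fetal lung epithelium. Per the labels' protocols, mice with floxed alleles of both genes carried the ShhCre allele, in which Cre recombinase is inserted at the Shh gene, a gene that is active in the lung epithelium and of which that allele makes no working copy. Fathers were Prdm3fl/flPrdm16fl/wtShhCre+ and mothers Prdm3fl/flPrdm16fl/fl. Lungs were taken at E17.5, a late fetal stage, cells with EpCAM, a surface protein of epithelia, were selected on microbeads, and polyadenylated RNA was sequenced. The series holds 5 knockout libraries, labelled PRDM3/16KO, and 6 Control libraries. The labels do not say which alleles the Control embryos carried, nor whether each library came from a separate animal, so the p-values measure the spread among libraries only, and some of that spread can be technical.

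A cell enters division when D-type cyclins with CDK4 or CDK6 inactivate the retinoblastoma protein, which frees E2F transcription factors to switch on genes for cyclin E, DNA replication and nucleotide synthesis. MCM helicase rings are loaded on replication origins in G1 and fire in S phase. A later wave of genes, controlled in part by FOXM1 and B-MYB, then supplies the kinases, motors and kinetochore proteins of mitosis. In the fetal lung these genes mark dividing epithelial progenitors, and their level falls as alveolar cells mature.

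Totals ran from 7286156 to 7652477 counts in knockout libraries and from 6065906 to 7869787 in Control libraries, of which 8313 to 23053 counts fell on the 47 measured genes. Values are CPM, counts as a share of each library's effective size, which edgeR's TMM factors (trimmed mean of M values) set; they are not corrected for gene length unless stated. Correlations of log2 CPM between libraries ran from 0.960 to 0.991 inside a group and from 0.915 to 0.940 across groups. Of the targeted genes, Prdm16 was counted at 167, 169, 147, 181 and 165 CPM in knockout libraries 1 to 5, against 227, 208, 226, 173, 189.8 and 188 CPM in Control libraries 1 to 6. Mecom was counted at 321, 349, 325, 352 and 354 CPM in knockout libraries 1 to 5, against 214, 233, 226, 206, 213 and 219 CPM in Control libraries 1 to 6, and was thus higher in every knockout library. The counts cover whole genes and the deleted exons are not named, so the genotype is checked only weakly by them. Marker genes of other cell types were counted as well, where 21.1% of all genes tested were called higher and 21.8% lower. The summed level of 12 alveolar type 2 markers, genes of the surfactant cells, was 2684 to 4014 CPM in the knockout and 7873 to 13687 CPM in Control. All 12 fell. Of 10 measured distal tip progenitor markers, 7 fell and 0 rose (857 to 1012 CPM in the knockout and 1542 to 1923 CPM in Control; by edgeR, 1 was higher at an unadjusted p under 0.05, and DESeq2 called 0 higher). Of 7 mesothelial markers, 6 rose (471 to 594 CPM in the knockout and 172 to 299.7 CPM in Control), of 18 mesenchymal markers 8 rose and 1 fell (1968 to 3551 CPM in the knockout and 1709 to 2611 CPM in Control), of 11 endothelial markers 6 rose and 1 fell (132 to 166 CPM in the knockout and 105 to 171 CPM in Control), and of 11 immune markers 6 rose (419 to 831 CPM in the knockout and 174 to 803 CPM in Control). The summed endothelial levels of the knockout lay inside the Control range, and the summed mesenchymal and immune levels overlapped between the groups. Without Control libraries 5 and 6, 2 of the 11 immune markers rose, against 6 mesothelial, 8 mesenchymal and 5 endothelial ones. Their part in the cell cycle values was not tested, apart from a fit with the mesenchymal level as a covariate. Of 12 epithelial markers, Epcam and Nkx2-1 among them, 2 rose and 6 fell, with summed levels of 9696 to 11024 CPM in the knockout and 10582 to 13468 CPM in Control. The 4 haemoglobin genes looked for, Hbb-bs, Hbb-bt, Hba-a1 and Hba-a2, had 0 counts in all 11 libraries.

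Most cell cycle genes were not called different between the groups when all libraries were used. By edgeR's quasi-likelihood test, with Benjamini-Hochberg adjustment over all 13916 genes and a threshold of 0.05, 3 of the 47 measured genes rose in the knockout and 5 fell. Among all genes tested, 21.1% were called higher and 21.8% lower, so a smaller share of the cell cycle genes was called than of genes in general. The genes that rose were Ccnd2, Rrm1 and Kif23, and those that fell were E2f1, Pcna, Mcm10, Rrm2 and Cdk2; DESeq2 called the same 8. At an unadjusted p under 0.05, edgeR had 3 higher and 7 lower, Bub1 and Prc1 being the further 2. The calls were repeated under 25 alternative settings of scaling, filter, tool, covariates and libraries, all at the threshold of 0.05. Leaving out knockout library 1 or 4 lowered the number called lower to 3, and leaving out Control library 6 raised the number called higher to 7. Control libraries 5 and 6 were known beforehand to run high in these genes. Here and below, fits without either of them therefore show how far a call rests on them and are no independent test. The median log2 fold change, knockout over Control, was -0.16 over the 47 genes and 0.0023 over all genes tested. The sign of the first value turned when 1 library was left out: it was 0.073 without Control library 6 alone, and -0.065 without Control library 5 alone. CPM ranges of the groups did not overlap for 2 of the 47 genes with the knockout higher (14.2% of all genes) and for 3 with the knockout lower (14.2% of all genes). In bulk samples, fewer dividing cells and less RNA of these genes per cell cannot be told apart.

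**Figure D1:**
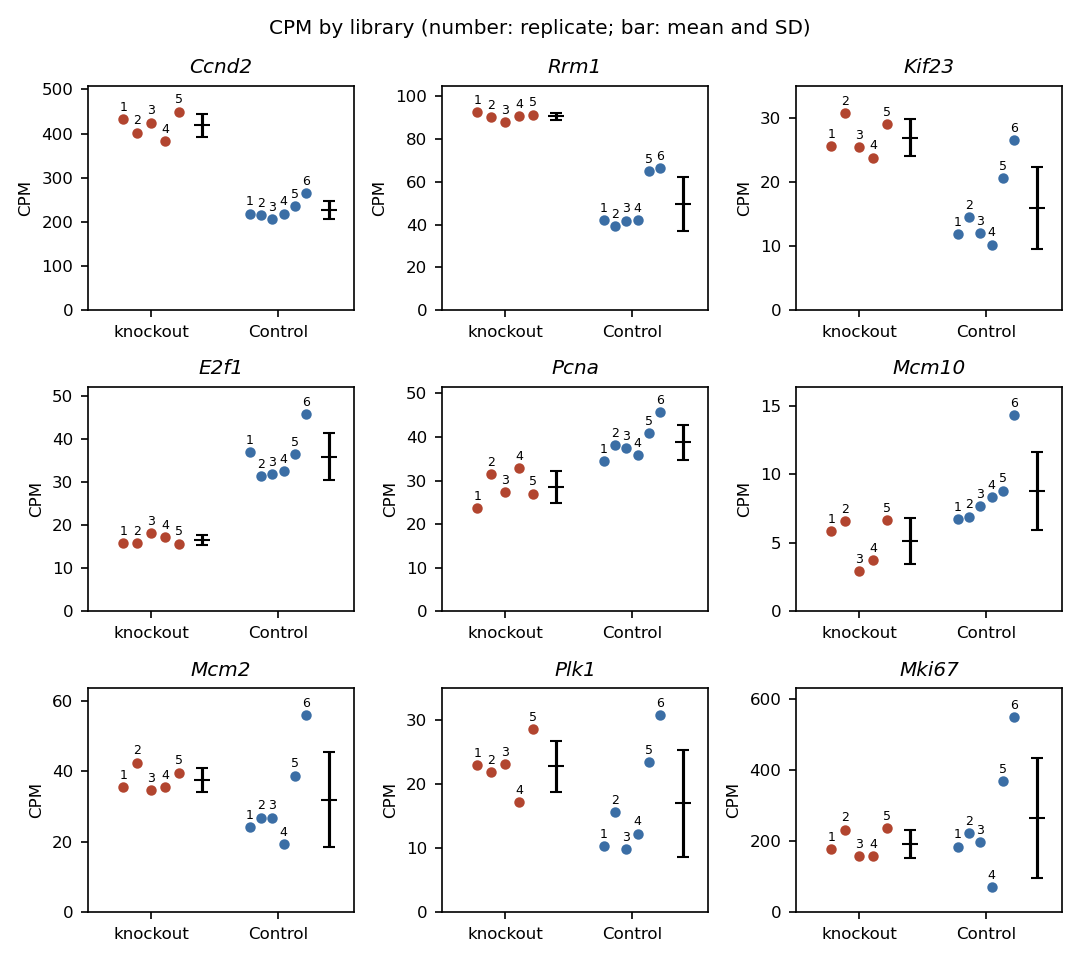
CPM of 9 cell cycle genes in each library, knockout left and Control right; numbers are replicate numbers and the bars give mean and SD. Ccnd2 and Rrm1 lie higher and E2f1, Pcna and Mcm10 lower in all 5 knockout libraries than in any Control library, whereas Mcm2, Plk1 and Mki67 of the knockout lie inside the Control range, which is stretched by Control libraries 5 and 6.

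The promoters of 5 of these genes are shown, with short sequences known from cell cycle promoters marked. Called genes with the smallest p in each direction and a usable window were taken, whatever sequences they held. These are Rrm1 and Kif23 among the genes that rose and Pcna and Mcm10 among those that fell. Mcm2 was added because it had the highest CPM of the licensing genes. E2f1 is left out because its RefSeq start lies 466 bases from GENCODE's, and Ccnd2 because it matched no entry. Sequences are from RefSeq (GRCm38.p6), 250 bases before to 50 bases after the start, 5′ to 3′, and 38 of the 48 genes matched an entry. The start of each printed window lies within 150 bases of GENCODE's. Capitals mark the CCAAT box (CCAAT) and the cell cycle homology region, CHR (TTTGAA or TTCGAA), on either strand; no marked matches overlap. An E2F sequence (TTTNNCGC, either strand) was searched as well and was in none of the 5.
Rrm1 (chr7:102441445-102441744, plus strand): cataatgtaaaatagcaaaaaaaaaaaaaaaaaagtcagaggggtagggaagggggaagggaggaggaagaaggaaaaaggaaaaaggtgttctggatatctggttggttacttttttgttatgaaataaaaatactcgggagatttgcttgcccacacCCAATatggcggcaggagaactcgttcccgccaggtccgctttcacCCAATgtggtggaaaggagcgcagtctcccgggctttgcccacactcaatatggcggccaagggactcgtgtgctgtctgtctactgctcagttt
Kif23 (chr9:61946750-61947049, minus strand): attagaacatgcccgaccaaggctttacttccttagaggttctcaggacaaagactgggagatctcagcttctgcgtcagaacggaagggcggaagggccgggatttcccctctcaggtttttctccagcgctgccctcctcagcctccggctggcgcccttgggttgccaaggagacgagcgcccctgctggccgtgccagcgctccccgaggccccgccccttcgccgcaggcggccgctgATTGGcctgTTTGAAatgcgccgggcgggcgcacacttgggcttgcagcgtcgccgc
Pcna (chr2:132253131-132253430, minus strand): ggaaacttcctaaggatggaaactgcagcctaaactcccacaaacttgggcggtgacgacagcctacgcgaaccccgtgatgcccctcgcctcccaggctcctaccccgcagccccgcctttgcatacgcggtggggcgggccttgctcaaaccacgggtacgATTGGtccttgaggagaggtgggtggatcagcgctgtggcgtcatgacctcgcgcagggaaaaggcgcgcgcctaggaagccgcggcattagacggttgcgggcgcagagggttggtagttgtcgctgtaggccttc
Mcm10 (chr2:5012742-5013041, minus strand): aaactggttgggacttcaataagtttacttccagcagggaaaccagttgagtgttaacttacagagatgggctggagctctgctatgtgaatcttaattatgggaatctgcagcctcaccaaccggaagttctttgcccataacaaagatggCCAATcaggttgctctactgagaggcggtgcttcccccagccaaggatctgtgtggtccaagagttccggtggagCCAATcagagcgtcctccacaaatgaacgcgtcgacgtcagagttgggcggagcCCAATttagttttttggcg
Mcm2 (chr6:88898731-88899030, minus strand): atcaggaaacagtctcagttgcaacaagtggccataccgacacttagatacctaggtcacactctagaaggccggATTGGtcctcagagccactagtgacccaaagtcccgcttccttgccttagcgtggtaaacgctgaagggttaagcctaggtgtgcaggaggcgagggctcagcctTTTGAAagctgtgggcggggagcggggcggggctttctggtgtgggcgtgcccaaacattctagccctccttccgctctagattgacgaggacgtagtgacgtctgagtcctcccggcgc

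In these windows Kif23 and Mcm2 each hold 1 CHR and 1 CCAAT box, Rrm1 holds 2 CCAAT boxes, Mcm10 holds 3 and Pcna holds 1. Over the 38 genes with a window, a CHR sequence was in 16, or 42.1%, against 17.4% of the 17224 genes of the table with a window. A CCAAT box was in 27, or 71.1%, against 38.8%. The E2F sequence was in 10, or 26.3%, against 6.31%. Licensing genes held the E2F sequence in 6 of 7 windows, Mcm2 being the exception, while none of the 8 chromosome and checkpoint genes or the 4 spindle genes with a window did. The CHR sequence was in 6 of those 8, in 3 of those 4 and in 4 of the 5 mitotic entry genes. In 5 of the 38 windows, those of Cdk6, Mcm7, E2f1, Cdkn2c and Cdc6, the RefSeq start lies more than 150 bases from GENCODE's. Of the other 33 windows 15 held a CHR sequence, 26 a CCAAT box and 7 the E2F sequence, which was in 4 of the 5 licensing windows left. These shares describe letters in a window and not binding.

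Among the 5 G1 cyclins and kinases, Ccnd2 rose and the other 4 were not called. Ccnd2 encodes cyclin D2 (chromosome 6, 127125162 to 127152193, minus strand). Its level was 433, 402, 425, 382 and 449 CPM in knockout libraries 1 to 5, against 219, 216, 207, 219, 235 and 265 CPM in Control libraries 1 to 6. Every knockout library lay above every Control library. Means were 418 ± 26.3 CPM in the knockout (SD, n = 5) and 227 ± 20.7 CPM in Control (SD, n = 6). The fitted log2 difference was 0.88, with SE 0.072 and an adjusted p = 1.28e-07 by edgeR, and the gene was called under each of the 25 alternatives. Cyclin D1, Ccnd1, was counted at 155, 152, 156, 154 and 154 CPM in knockout libraries 1 to 5, against 119, 126, 118, 144, 142 and 171 CPM in Control libraries 1 to 6. The knockout values spanned a narrow band above Control libraries 1 to 5 and below Control library 6, and the log2 fold change of 0.17 (adjusted p = 0.122 by edgeR; SE 0.085) was not called with all libraries. Leaving out Control library 6 alone gave 0.25 (edgeR, adjusted p = 0.00578). Cyclin D3, Ccnd3, had a log2 fold change of -0.10 and was not called, with 89.4 to 112 CPM in the knockout and 97.8 to 119 CPM in Control. Divided by the annotated exon length, the level in CPM per kilobase was 44.5 ± 2.79 in the knockout and 24.1 ± 2.21 in Control for Ccnd2 (SD, n = 5 and 6). For Ccnd1 it was 32.7 ± 0.281 in the knockout and 29.0 ± 4.28 in Control, and for Ccnd3 11.7 ± 1.28 in the knockout and 12.5 ± 0.847 in Control. The ratio of Ccnd2 to Ccnd1 CPM, chosen after the values were seen, was 2.80, 2.64, 2.73, 2.49 and 2.92 in knockout libraries 1 to 5 and 1.84, 1.71, 1.75, 1.52, 1.65 and 1.55 in Control libraries 1 to 6. It was thus higher in each knockout library than in any Control library. The kinase genes Cdk4 (87.9 to 106 CPM in the knockout and 79.0 to 109 CPM in Control) and Cdk6 (12.8 to 15.7 CPM in the knockout and 6.41 to 17.4 CPM in Control) had log2 fold changes of 0.042 and 0.24 and were not called. Part of Cdk4, 19.7% of its exon bases, overlaps Tspan31 on the opposite strand, and for Ccnd2 this share is 3.91%, with 9330179D12Rik; the strand setting of the counting is not given in the sources used here.

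The E2F factor gene E2f1, whose protein turns on replication genes at the G1/S boundary, had the most negative log2 fold change of the 47 genes (chromosome 2, 154559407 to 154569892, minus strand). Its level was 15.9, 15.9, 18.2, 17.2 and 15.8 CPM in knockout libraries 1 to 5, against 37.1, 31.5, 32.0, 32.6, 36.6 and 45.9 CPM in Control libraries 1 to 6. All 5 knockout values lay below all 6 Control values, and Control library 6 was the highest. Means were 16.6 ± 1.07 CPM in the knockout (SD, n = 5) and 36.0 ± 5.44 CPM in Control (SD, n = 6). The fitted log2 difference was -1.12, with SE 0.10 and an adjusted p = 4.82e-07 by edgeR, or 46.1% of the Control level. It stayed called under each of the 25 alternatives, with log2 fold changes from -1.28 to -1.0.

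Of the cyclins and the kinase that act at and after the G1/S boundary, Cdk2 fell slightly. Cdk2, the partner of cyclins E and A, was counted at 54.8, 59.3, 60.7, 55.7 and 65.9 CPM in knockout libraries 1 to 5, against 69.1, 63.2, 72.0, 61.2, 77.0 and 80.3 CPM in Control libraries 1 to 6. The ranges overlapped, and the log2 fold change was -0.25 (adjusted p = 0.0202 by edgeR; SE 0.08). The call was lost with library-size scaling (-0.15; edgeR, adjusted p = 0.231) and upper-quartile scaling (-0.20; adjusted p = 0.0845). It was also lost without knockout library 1 (-0.22), 2 (-0.23) or 4 (-0.23), with edgeR adjusted p = 0.0576, 0.0629 and 0.0523. Ccna2, for cyclin A2 of S phase and mitosis, was counted at 11.9, 13.0, 11.3, 10.5 and 13.7 CPM in knockout libraries 1 to 5, against 10.3, 13.7, 10.7, 6.76, 23.3 and 31.4 CPM in Control libraries 1 to 6. Its knockout values lay inside the Control range (log2 fold change -0.43; SE 0.32; edgeR, adjusted p = 0.309). The cyclin E genes were low. Ccne1 stood at 2.63 to 3.60 CPM in the knockout and 1.73 to 5.19 CPM in Control and Ccne2 at 1.15 to 1.67 CPM in the knockout and 1.21 to 2.31 CPM in Control, with log2 fold changes of 0.17 and -0.0045, neither of them called.

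Subunits of ribonucleotide reductase, the enzyme that makes deoxyribonucleotides, moved in opposite directions. Rrm1, the large subunit (chromosome 7, 102441695 to 102469771, plus strand), was counted at 92.3, 90.1, 87.9, 90.6 and 91.2 CPM in knockout libraries 1 to 5, against 42.1, 39.1, 41.9, 42.1, 65.0 and 66.3 CPM in Control libraries 1 to 6. The knockout values were close together and all lay above the Control values, among which libraries 5 and 6 were the highest. Means were 90.4 ± 1.64 CPM in the knockout (SD, n = 5) and 49.4 ± 12.6 CPM in Control (SD, n = 6). The fitted log2 difference was 0.86, with SE 0.13 and an adjusted p = 0.000129 by edgeR, called under each of the 25 alternatives. Rrm2, the small subunit, made mainly in S phase (chromosome 12, 24708241 to 24714146, plus strand), was counted at 20.7, 22.6, 20.0, 16.5 and 23.8 CPM in knockout libraries 1 to 5, against 18.1, 23.1, 26.9, 28.8, 38.0 and 50.1 CPM in Control libraries 1 to 6. Control libraries 1 and 2 lay within the knockout range, and Control libraries 3 to 6 lay above it. The Rrm2 log2 fold change was -0.59 (adjusted p = 0.0462 by edgeR; SE 0.22) and was called in 11 of 25 alternatives. It was not called without Control library 4, 5 or 6 (-0.61, -0.52 and -0.39; edgeR, adjusted p = 0.0688, 0.0899 and 0.0707), nor without any single one of the 5 knockout libraries (-0.64 to -0.51; adjusted p = 0.0541 to 0.103). The ratio of Rrm1 to Rrm2 CPM, chosen after the values were seen, was 4.46, 3.99, 4.40, 5.50 and 3.83 in knockout libraries 1 to 5 and 2.32, 1.69, 1.56, 1.46, 1.71 and 1.32 in Control libraries 1 to 6. Each knockout ratio exceeded each Control ratio. Tyms, for thymidylate synthase, was low, at 4.64 to 7.36 CPM in the knockout and 4.64 to 14.2 CPM in Control, and was not called (log2 fold change -0.46; SE 0.27; edgeR, adjusted p = 0.195).

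Pcna and Mcm10, which act at the replication fork, fell. Pcna encodes the sliding clamp of DNA polymerases (chromosome 2, 132249162 to 132253314, minus strand). Its level was 23.7, 31.4, 27.4, 32.8 and 27.0 CPM in knockout libraries 1 to 5, against 34.4, 38.2, 37.4, 35.9, 40.9 and 45.7 CPM in Control libraries 1 to 6. The groups did not overlap, and Control libraries 5 and 6 were again the highest. Means were 28.5 ± 3.64 CPM in the knockout (SD, n = 5) and 38.8 ± 4.04 CPM in Control (SD, n = 6). The fitted log2 difference was -0.45, with SE 0.10 and an adjusted p = 0.00143 by edgeR, called under each of the 25 alternatives. Some 19.1% of the 50-base words in its transcripts are shared with the pseudogene Pcna-ps2, so the counting could have split its reads. Mcm10, a fork protein needed to activate the helicase (chromosome 2, 4989714 to 5012791, minus strand), was counted at 5.83, 6.57, 2.95, 3.73 and 6.66 CPM in knockout libraries 1 to 5, against 6.75, 6.92, 7.68, 8.32, 8.81 and 14.3 CPM in Control libraries 1 to 6. Its groups did not overlap, although the highest knockout value, 6.66 CPM, and the lowest Control value, 6.75 CPM, nearly met. The log2 fold change was -0.79 (adjusted p = 0.0178 by edgeR; SE 0.24), and without Control libraries 5 and 6 it was -0.53 and not called (edgeR, adjusted p = 0.0647). Gins2, a part of the active helicase, was at 2.12 to 3.84 CPM in the knockout and 1.91 to 5.31 CPM in Control and was not called (-0.10); 67.3% of its exon bases overlap Gse1 on the opposite strand. Cdc45, its partner in that helicase, was too low to be tested. It had 2, 7, 6, 9 and 4 counts in knockout libraries 1 to 5, against 9, 7, 8, 7, 8 and 11 counts in Control libraries 1 to 6.

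None of the 8 origin licensing genes was called with all libraries by edgeR, 0 had an unadjusted p under 0.05, and DESeq2 called 0. The 6 measured MCM genes encode the ring-shaped helicase that is loaded on origins, and CDC6 and CDT1 load it. Mcm2 was counted at 35.4, 42.4, 34.7, 35.5 and 39.6 CPM in knockout libraries 1 to 5, against 24.1, 26.8, 26.9, 19.4, 38.7 and 55.9 CPM in Control libraries 1 to 6. All 5 knockout values lay above Control libraries 1 to 4 and below Control library 6. The Mcm2 log2 fold change was 0.21 (adjusted p = 0.466 by edgeR; SE 0.22), and without Control library 6 alone it was 0.45 and called (edgeR, adjusted p = 0.0164). Mcm5, at 6.76, 9.59, 7.43, 6.05 and 6.91 CPM in knockout libraries 1 to 5, against 5.33, 5.53, 5.92, 3.64, 13.2 and 17.2 CPM in Control libraries 1 to 6, was the only one of the 47 genes whose knockout values all lay between Control libraries 1 to 4 and Control libraries 5 and 6, a position shared by 0.208% of all genes. Cdt1 was counted at 20.4, 24.0, 18.7, 18.9 and 23.3 CPM in knockout libraries 1 to 5, against 16.2, 16.7, 17.9, 12.5, 19.7 and 34.2 CPM in Control libraries 1 to 6. Control library 6 stood apart, and without it the log2 fold change of 0.094 became 0.34 (edgeR, adjusted p = 0.0312). Mcm4 was counted at 22.5, 31.3, 25.0, 24.4 and 26.9 CPM in knockout libraries 1 to 5, against 22.7, 21.7, 21.3, 15.4, 30.2 and 38.3 CPM in Control libraries 1 to 6. Control library 6 was the highest and Control library 4 the lowest. With all libraries, the log2 fold changes of the other 5 were 0.13 for Mcm3, 0.049 for Mcm4, -0.088 for Mcm6, 0.13 for Mcm7 and -0.33 for Cdc6. Of the 50-base words of Mcm7, 18.1% are shared with other annotated genes, Gm5487 and the microRNA genes Mir93 and Mir25. Shares over 5% were also found for Ccnb1 (23.4%, mainly pseudogenes), Cdc20 (10.4%), Plk1 (6.56%) and Tyms (5.25%), so their counts could have been split as well. Besides the overlaps given above, over 10% of exon bases overlap genes on the opposite strand in Ccne2 (17.4%), Ccna2 (12.5%) and Prc1 (11.1%), and 12.6% of those of Mcm7 overlap the opposite-strand genes Ap4m1 and Cops6 and the 2 microRNA genes. In Nusap1, Ccnd3, Cdc20 and Cdk2 the share was 0.547% to 4.24%.

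None of the 7 regulators of mitotic entry was called with all libraries by edgeR, 0 had an unadjusted p under 0.05, and DESeq2 called 0. Cdk1 and its cyclins B1 and B2 form the kinase that starts mitosis. Cdk1 was counted at 10.1, 12.1, 9.86, 8.23 and 14.1 CPM in knockout libraries 1 to 5, against 9.41, 8.99, 8.63, 7.28, 16.0 and 19.1 CPM in Control libraries 1 to 6. The groups overlapped and the log2 fold change was -0.11. Ccnb1 was at 7.98 to 11.2 CPM in the knockout and 6.21 to 15.2 CPM in Control (0.0096) and Ccnb2 at 5.12 to 10.8 CPM in the knockout and 6.21 to 13.5 CPM in Control (-0.44). Without knockout library 2, in which Ccnb2 was highest, Ccnb2 was called lower (-0.66; edgeR, adjusted p = 0.0427), and without Control libraries 5 and 6 it was at -0.057 and not called (adjusted p = 0.849). Foxm1, for the transcription factor of the G2/M genes, was counted at 29.0, 43.2, 31.5, 34.1 and 38.9 CPM in knockout libraries 1 to 5, against 34.3, 36.8, 35.8, 25.3, 62.3 and 90.8 CPM in Control libraries 1 to 6. Control libraries 5 and 6 lay above all other 9 libraries, and the log2 fold change was -0.44 (adjusted p = 0.241 by edgeR; SE 0.29). The kinase genes Plk1 and Aurka had positive values. Plk1 was counted at 22.9, 21.9, 23.2, 17.2 and 28.6 CPM in knockout libraries 1 to 5, against 10.3, 15.6, 9.91, 12.3, 23.4 and 30.7 CPM in Control libraries 1 to 6. Each knockout library exceeded each of Control libraries 1 to 4, and only Control library 6 exceeded all knockout libraries. The Plk1 log2 fold change was 0.39 (adjusted p = 0.264 by edgeR; SE 0.27), and it was 0.65 and called without Control library 6 (edgeR, adjusted p = 0.0243). Aurka, for the spindle pole kinase Aurora A, had 17.8 to 23.1 CPM in the knockout and 10.5 to 26.8 CPM in Control and a log2 fold change of 0.19. Cdc25c, for the phosphatase that activates CDK1, stood at 2.19 to 3.20 CPM in the knockout and 1.73 to 5.56 CPM in Control, with a log2 fold change of -0.24. Neither was called.

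Of the chromosome and checkpoint genes, all 9 had negative log2 fold changes, from -0.70 to -0.018, but this common sign did not hold without Control libraries 5 and 6, where 8 of the 9 were positive and the median was 0.19, against -0.19 with all libraries. Without Control library 6 alone 4 of the 9 were positive, with library size only Cenpe and Cenpf were, and with upper-quartile factors Cenpf was. With a block for the replicate number 6 were positive, and with the level of other mitotic genes as a covariate 3 were. With limma-voom, with or without library weights, and without Control library 5 alone, 2 were positive. Without knockout library 3 or 4, 1 was. With all libraries none was called by edgeR or by DESeq2, and Bub1 had an unadjusted p under 0.05. Mki67, whose product Ki-67 coats mitotic chromosomes and marks dividing cells, was counted at 178, 233, 159, 158 and 237 CPM in knockout libraries 1 to 5, against 185, 222, 197, 71.6, 369 and 550.0 CPM in Control libraries 1 to 6. The knockout libraries lay well inside the Control range, whose ends were Control libraries 4 and 6. The log2 fold change was -0.47 (adjusted p = 0.396 by edgeR; SE 0.41). Top2a, the topoisomerase that untangles replicated chromosomes, was counted at 31.8, 33.0, 29.2, 24.6 and 35.7 CPM in knockout libraries 1 to 5, against 28.6, 33.7, 27.5, 26.5, 41.7 and 49.3 CPM in Control libraries 1 to 6, and the groups overlapped (-0.17). Cdc20, which activates the anaphase-promoting complex, was counted at 53.8, 65.2, 61.3, 52.1 and 63.9 CPM in knockout libraries 1 to 5, against 61.4, 57.8, 51.5, 44.9, 85.3 and 102 CPM in Control libraries 1 to 6 and had a log2 fold change of -0.19. Bub1 and Bub1b of the spindle checkpoint had log2 fold changes of -0.70 and -0.28, and without Control library 4 Bub1 was called lower (-0.84; edgeR, adjusted p = 0.0336). Without Control libraries 5 and 6 the Bub1 value was -0.15 and not called (edgeR, adjusted p = 0.653). For the kinetochore genes Cenpe and Cenpf the log2 fold changes were -0.063 and -0.018, and for Aurkb and Birc5, which encode Aurora B and its partner survivin, -0.17 and -0.46.

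Of the 5 spindle and division genes, Kif23 rose and the other 4 were not called. It encodes a kinesin of the central spindle that is required for cytokinesis (chromosome 9, 61915905 to 61946774, minus strand). Its level was 25.6, 30.7, 25.5, 23.8 and 29.0 CPM in knockout libraries 1 to 5, against 11.9, 14.5, 12.0, 10.2, 20.7 and 26.5 CPM in Control libraries 1 to 6. Knockout libraries lay above Control libraries 1 to 5, and Control library 6 lay inside the knockout range. Means were 26.9 ± 2.85 CPM in the knockout (SD, n = 5) and 16.0 ± 6.35 CPM in Control (SD, n = 6). The fitted log2 difference was 0.73, with SE 0.21 and an adjusted p = 0.0118 by edgeR. Under 24 of the 25 alternatives it stayed called; with the mesenchymal marker level as a covariate it was 0.60 and was not (edgeR, adjusted p = 0.0917). Kif11, for a motor that separates spindle poles, had 23.6, 30.7, 22, 22.8 and 30.7 CPM in knockout libraries 1 to 5, against a lowest, median and highest value of 15.4, 27.7 and 62.6 CPM in the Control libraries. Its knockout values lay inside the Control range, and its log2 fold change of -0.38 was not called. The Kif23 to Kif11 CPM ratio, chosen after the values were seen, was 1.08, 1.00, 1.16, 1.05 and 0.944 in knockout libraries 1 to 5 and 0.573, 0.559, 0.408, 0.663, 0.448 and 0.424 in Control libraries 1 to 6. No Control ratio reached the lowest knockout ratio. Not every ratio computed this way separated the groups. That of E2f1 to Foxm1 CPM was 0.368 to 0.577 in the knockout and 0.506 to 1.29 in Control, and these ranges overlapped. Prc1, for a microtubule bundler that works with KIF23 at the central spindle, had 25.1, 24.2, 19.5, 23.9 and 26.8 CPM in knockout libraries 1 to 5, against a lowest, median and highest value of 21.9, 29.5 and 37.8 CPM in the Control libraries. Its log2 fold change of -0.30 was not called with all libraries, but was without Control library 3 (-0.37) or 4 (-0.36), with edgeR adjusted p = 0.0364 and 0.0338. Without Control libraries 5 and 6 it was -0.12 and not called (edgeR, adjusted p = 0.447). The spindle assembly genes Tpx2 and Nusap1 had log2 fold changes of -0.16 and -0.18.

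Neither of the 2 inhibitor genes was called. Cdkn1b, for the CDK inhibitor p27, was counted at 218, 251, 235, 262 and 246 CPM in knockout libraries 1 to 5, against 253, 252, 276, 208, 230.3 and 233 CPM in Control libraries 1 to 6. The log2 fold change was 0.0029 (adjusted p = 0.981 by edgeR; SE 0.075), with a 95% interval of -0.14 to 0.15. Cdkn2c, for p18, an inhibitor of CDK4 and CDK6, was counted at 9.95, 12.0, 11.9, 9.13 and 11.7 CPM in knockout libraries 1 to 5, against 12.1, 12.6, 11, 8.15, 21.9 and 25.6 CPM in Control libraries 1 to 6. Control libraries 5 and 6 were the highest of all 11, and its log2 fold change was -0.50 (adjusted p = 0.137 by edgeR; SE 0.26). Without Control library 4 it was -0.62 and called lower (edgeR, adjusted p = 0.0448), and without Control libraries 5 and 6 it was -0.011 and not called (adjusted p = 0.96).

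**Figure D2:**
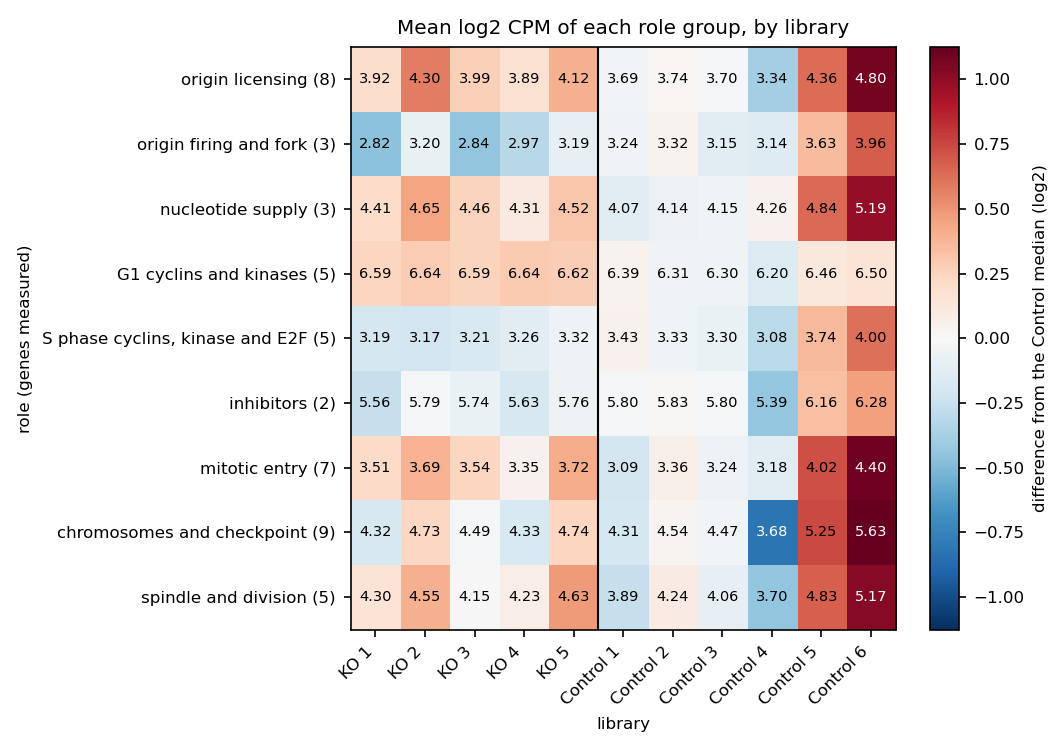
Mean log2 CPM of each role group (rows, with the number of genes measured) in each library (columns, knockout left of Control); colour gives the difference from the Control median. Control libraries 5 and 6 are the highest of the Control libraries in all 9 rows, and Control library 4 is the lowest in 7.

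The spread within Control was wider than within the knockout for these genes. The median SD of log2 CPM over the 47 genes was 0.18 among knockout libraries and 0.52 among Control libraries, against 0.13 and 0.20 over all genes tested. In 44 of the 47 genes the Control SD was the larger; it was so in 77.5% of all genes. The exceptions were Mcm10, Pcna and Ccnd3. The higher level of Control libraries 5 and 6 in these genes was known beforehand, so the spreads above and the counts below describe it and test nothing. Control libraries 5 and 6 both exceeded Control libraries 1 to 4 in 40 of the 47 genes, where 12.7% of all genes tested had that order. They lay below Control libraries 1 to 4 in 0 of the 47, where 18.0% of all genes did. The 7 genes without that order were Ccnd1, Ccnd3, Cdk4, Cdk6, Ccne2, E2f1 and Cdkn1b, of which 4 belong to the 5 G1 cyclins and kinases. Control library 6 was the highest of all 11 libraries in 40 genes. All knockout values lay inside the Control range in 33 of the 47 genes, against 23.2% of all genes tested.

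**Figure D3:**
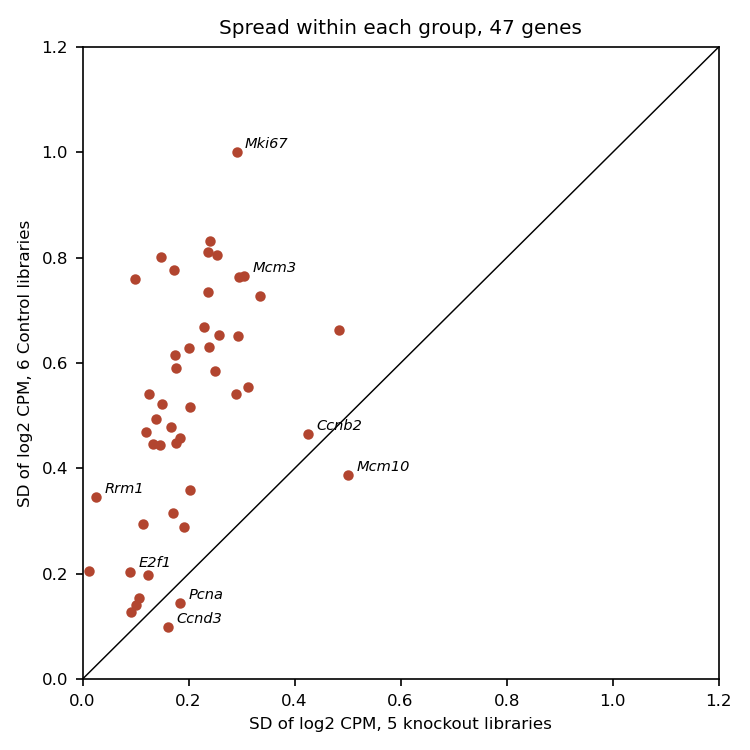
SD of log2 CPM among the 5 knockout libraries (x axis) and the 6 Control libraries (y axis) for the 47 measured genes; the line marks equal spread. Mki67 has the widest Control spread, and Mcm10, Pcna and Ccnd3 lie below the line.

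Per library, the mean log2 CPM of the 47 genes was 4.21, 4.46, 4.26, 4.20 and 4.45 in knockout libraries 1 to 5, against 4.09, 4.21, 4.13, 3.83, 4.75 and 5.07 in Control libraries 1 to 6. Control library 4 was the lowest and Control library 6 the highest of all 11. Mean log2 CPM of the 9 chromosome and checkpoint genes was 4.32, 4.73, 4.49, 4.33 and 4.74 in knockout libraries 1 to 5, against 4.31, 4.54, 4.47, 3.68, 5.25 and 5.63 in Control libraries 1 to 6. For the 8 licensing genes it was 3.92, 4.30, 3.99, 3.89 and 4.12 in knockout libraries 1 to 5, against 3.69, 3.74, 3.70, 3.34, 4.36 and 4.80 in Control libraries 1 to 6. In both groups of genes Control libraries 5 and 6 were the highest of the 11, and knockout libraries 1 to 5 lay above Control libraries 1 to 4 in licensing but not in chromosome genes. For the 5 G1 cyclins and kinases the mean was 6.59, 6.64, 6.59, 6.64 and 6.62 in knockout libraries 1 to 5, against 6.39, 6.31, 6.30, 6.20, 6.46 and 6.50 in Control libraries 1 to 6, and every knockout library lay above every Control library. For the 3 fork genes it was 2.82, 3.20, 2.84, 2.97 and 3.19 in knockout libraries 1 to 5, against 3.24, 3.32, 3.15, 3.14, 3.63 and 3.96 in Control libraries 1 to 6, with Control libraries 5 and 6 again the highest.

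Other markers differed in the same 2 Control libraries, though not in every list. Of all genes tested, 12.7% had both libraries above Control libraries 1 to 4, and 18.0% had both below. Summed levels of the 12 alveolar type 1 markers, genes of the flat gas-exchange cells, were 12149 and 10853 CPM in Control libraries 5 and 6 and 15305 to 16839 CPM in Control libraries 1 to 4, and 10 of the 12 had both libraries below the other 4. For the 12 alveolar type 2 markers, genes of the surfactant cells, 9 of 12 had that order, with 9666 and 7873 CPM in Control libraries 5 and 6 and 11489 to 13687 CPM in Control libraries 1 to 4. Of the 10 measured distal tip progenitor markers, 7 had both libraries above the other 4, with 1811 and 1923 CPM in Control libraries 5 and 6 and 1542 to 1720.2 CPM in Control libraries 1 to 4. Immune markers were lower in both libraries in 9 of 11 genes, with 281 and 174 CPM in Control libraries 5 and 6 and 514 to 803 CPM in Control libraries 1 to 4, and the 2 libraries had 174 and 172 CPM of 7 mesothelial markers, against 275 to 299.7 CPM in the other 4, although only 2 of the 7 genes had both libraries below the other 4. Of the 12 epithelial markers, 6 had both libraries below the other 4 and 2 had both above. Their sums were 10967 and 10582 CPM in Control libraries 5 and 6 and 11779 to 13468 CPM in Control libraries 1 to 4. Of 11 endothelial markers 3 were below and 2 above in this way, and of 18 mesenchymal markers 1 was below and 1 above. The summed level of 4 Y-linked transcripts was 203 CPM in Control library 5 and 0.247 CPM in Control library 6. In Control libraries 1 to 4 it was 219, 1.24, 230.3 and 230.7 CPM. In knockout libraries 1 to 5 it was 0.796, 1.31, 1.92, 212 and 5.18 CPM, so the groups differed in how many libraries were high. With their mean log2 CPM as a covariate, 3 of the 47 genes were called higher and 6 lower. Of all 13916 genes tested, 2547 were higher and 2582 lower in that fit. The median log2 fold change of the 47 genes was then -0.27. Sex was otherwise not tested. The labels give no litter, batch or finer stage for any library.

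Without Control libraries 5 and 6, the direction of many cell cycle genes turned. The 2 libraries are left out because of their level of these very genes, so this fit describes how far the comparison rests on them and is no independent test. Then 14 of the 47 genes were called higher in the knockout and 2 lower, where 22.8% of the 13987 genes tested were called higher and 23.9% lower. The median log2 fold change was 0.27 over the 47 genes and 0.0092 over all genes, and 21 of the 47 genes changed sign. All knockout values lay above Control libraries 1 to 4 in 12 of the 47 genes, against 19.0% of all genes tested. Both fits called Ccnd2, Rrm1 and Kif23 higher and E2f1 and Pcna lower. Ccnd2 had 0.96 in place of 0.88, Rrm1 1.13 in place of 0.86, and Kif23 1.14 in place of 0.73. E2f1 had -1.0 in place of -1.12, and Pcna -0.36 in place of -0.45. Mcm10 (-0.53), Rrm2 (-0.23) and Cdk2 (-0.16) were called lower with all libraries and were not called in this fit.

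Licensing genes made up 6 of the 14 genes called higher without these 2 libraries. Their log2 fold changes in that fit were 0.62 for Mcm2, 0.65 for Mcm3, 0.35 for Mcm4, 0.51 for Mcm5, 0.33 for Mcm7 and 0.41 for Cdt1, with edgeR adjusted p from 0.000175 to 0.0323. Mcm6 (0.23) and Cdc6 (0.27) were not called. Plk1 (0.91), Aurka (0.54), Ccne1 (0.73), Cenpf (0.53) and Ccnd1 (0.28) were also called higher, with edgeR adjusted p = 0.000297, 0.00416, 0.0116, 0.0354 and 0.00223. Mki67 (0.19), Top2a (0.078), Foxm1 (0.091), Cdk1 (0.34) and Ccnb1 (0.31) were not called in either fit.

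**Figure D4:**
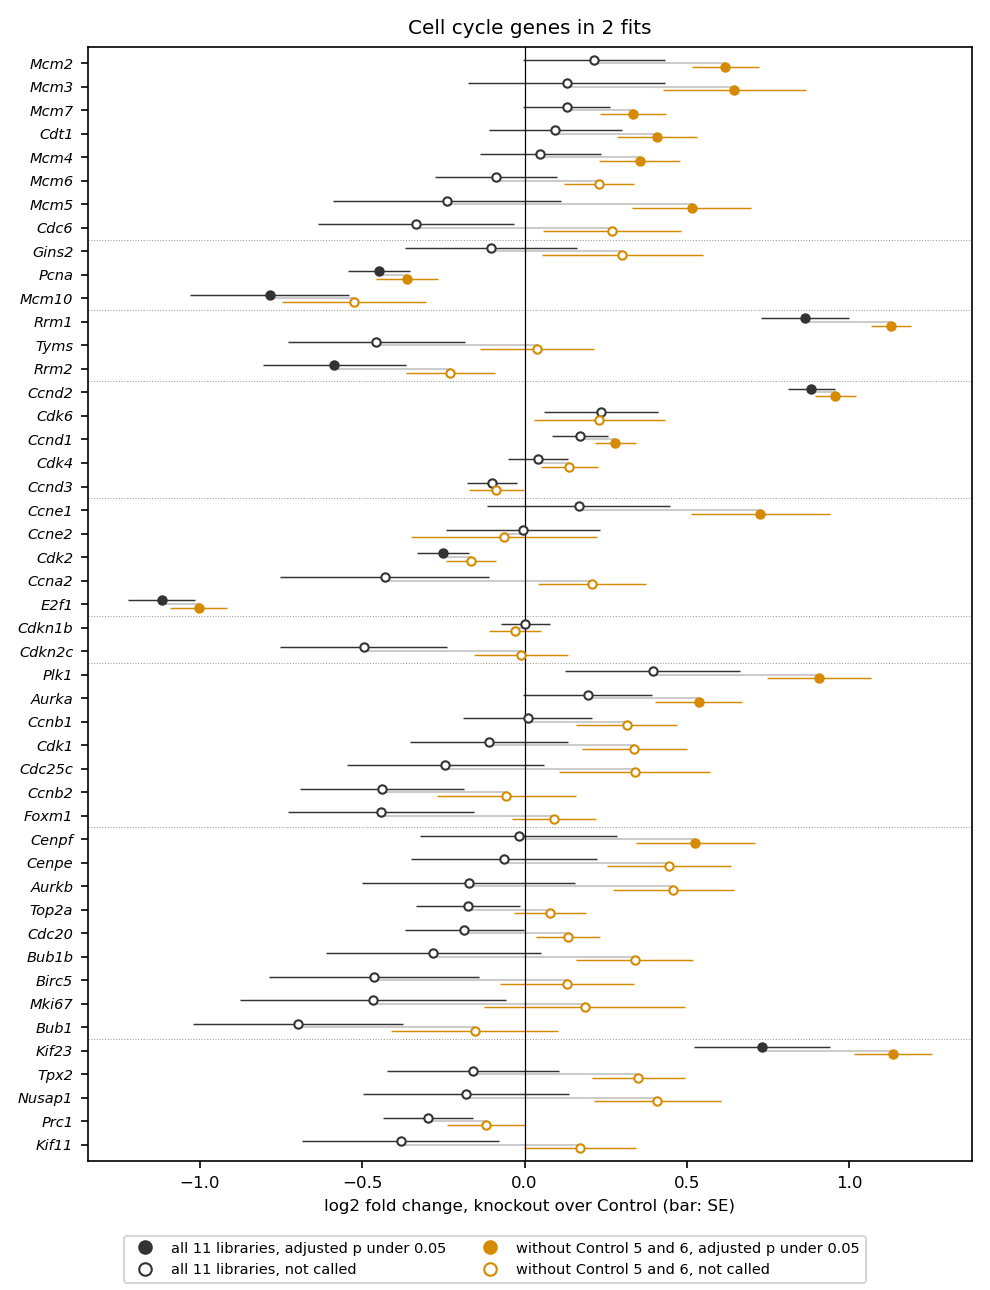
Log2 fold change, knockout over Control, of the 47 measured genes with all 11 libraries (dark) and without Control libraries 5 and 6 (orange); bars are SE, filled points have an adjusted p under 0.05, and dotted lines divide role groups. Most genes shift to the right when the 2 libraries are left out, whereas E2f1 and Pcna stay called on the left and Ccnd2, Rrm1 and Kif23 on the right.

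With the mean level of 54 other mitotic genes of each library as a covariate, an alternative added after the data were seen, 7 of the 47 genes were called higher and 9 lower. Of all 13916 genes tested, 3448 were called higher and 3489 lower in this fit. In 47 of the 54 covariate genes Control libraries 5 and 6 both exceeded Control libraries 1 to 4. The covariate thus holds the order known beforehand, and the fit is no independent test. All 8 genes called with all libraries kept their calls in this fit. Mcm2 (0.35), Mcm3 (0.33), Plk1 (0.56) and Ccnd1 (0.19) were added as higher. Foxm1 (-0.25), Bub1 (-0.51), Cdkn2c (-0.34) and Prc1 (-0.25) were added as lower. The edgeR adjusted p of these 8 ran from 0.000322 to 0.0315. The median log2 fold change of the 47 genes in this fit was 0.0095.

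Other genes of the cycle were counted in 4 lists. Of all genes tested, 21.1% were called higher and 21.8% lower with all libraries, and 22.8% and 23.9% without Control libraries 5 and 6. Of 44 measured replication genes outside the 47, 1 rose and 4 fell with all libraries, and 16 rose and 2 fell without Control libraries 5 and 6; the medians were 0.032 and 0.30. Dbf4, which activates the kinase CDC7 at origins, fell, with 35.2 ± 3.04 CPM in the knockout and 51.5 ± 1.87 CPM in Control (log2 fold change -0.55; SE 0.068; edgeR, adjusted p = 9.79e-06). Orc6 (-0.32), Gins1 (-0.81) and Rfc2 (-0.28) fell and the polymerase delta subunit gene Pold3 (0.29) rose, while Orc3 (-0.031) and Rpa1 (-0.12) were not called. Gins1 (-0.41) and Rfc2 (-0.26) were no longer called without Control libraries 5 and 6. Of 54 other mitotic genes, 0 rose and 4 fell by edgeR with all libraries (2 were higher at an unadjusted p under 0.05, and DESeq2 called 2 higher), and 12 rose and 4 fell without the 2 libraries; the medians were -0.14 and 0.32. The kinetochore gene Spc24 fell, with 10.8 ± 2.05 CPM in the knockout and 20.1 ± 5.51 CPM in Control (log2 fold change -0.91; SE 0.18; edgeR, adjusted p = 0.000995). Stmn1, for a tubulin-binding protein (-0.97), Pttg1, for securin (-0.66), and Ube2s (-0.47) fell as well. Nek2 (0.35) and Ckap2l (0.14) were not called.

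Among 30 other regulators of the cycle, 4 rose and 9 fell with all libraries, and 5 rose and 9 fell without Control libraries 5 and 6. With all libraries, 21.1% of all genes tested were called higher and 21.8% lower. E2f2, for a second activating E2F factor, was counted at 92.3, 133, 104, 114 and 105 CPM in knockout libraries 1 to 5, against 254, 254, 214, 168, 225 and 227 CPM in Control libraries 1 to 6. The groups did not overlap, and the log2 fold change was -1.03 (adjusted p = 2.77e-06 by edgeR; SE 0.11), -1.02 without the 2 libraries. E2f3, for the remaining activating factor, moved the other way. It was counted at 42.2, 39.0, 39.1, 47.1 and 42.1 CPM in knockout libraries 1 to 5, against 33.9, 31.1, 30.4, 25.7, 30.6 and 35.2 CPM in Control libraries 1 to 6. Every knockout value was above every Control value, and the log2 fold change was 0.43 (adjusted p = 0.000743 by edgeR; SE 0.084). Tfdp1, for the partner that E2F proteins bind DNA with, rose (0.24), and Rb1, for the retinoblastoma protein that holds E2F proteins in check, fell (-0.40; 21 ± 0.824 CPM in the knockout and 27.8 ± 3.06 CPM in Control). Myc, a growth regulator, was counted at 181, 168, 147, 178 and 150.3 CPM in knockout libraries 1 to 5, against 107, 96.1, 96.1, 104, 95.4 and 118 CPM in Control libraries 1 to 6. All knockout values lay above the Control values. On the log2 scale the difference was 0.68, with SE 0.075 and an adjusted p = 2.87e-06 by edgeR. Cdc25b and Wee1, whose products act on CDK1 in opposite ways at mitotic entry, both fell. Cdc25b, for an activating phosphatase, had 28.2 ± 3.21 CPM in the knockout and 63.6 ± 9.63 CPM in Control (log2 fold change -1.17; SE 0.11; edgeR, adjusted p = 5.63e-07). Wee1, for an inhibitory kinase, had 58.1 ± 6.70 CPM in the knockout and 98.0 ± 11 CPM in Control (log2 fold change -0.75; SE 0.092; edgeR, adjusted p = 8.72e-06). The checkpoint kinase gene Chek2 rose (0.57), and Btg2 (0.0096) and Tfdp2 (0.19) were not called.

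Of 16 other inhibitors and p53 targets measured, 1 rose and 8 fell with all libraries, where 21.1% of all genes rose and 21.8% fell. Without Control libraries 5 and 6, 2 of the 16 rose and 8 fell. Gadd45a, a stress gene that p53 induces, was counted at 50.3, 46.4, 45.8, 47.2 and 46.8 CPM in knockout libraries 1 to 5, against 97.5, 91.0, 104, 105, 88.3 and 73.1 CPM in Control libraries 1 to 6. The knockout values were all below the Control values. On the log2 scale the difference was -0.97, with SE 0.086 and an adjusted p = 2.91e-07 by edgeR. Gadd45g (-0.69) and Sesn2 (-0.90) fell, Sesn1 (0.31) rose, and Cdkn2d, for p19, an inhibitor of CDK4 and CDK6, fell, with 19.0 ± 0.958 CPM in the knockout and 29.0 ± 2.84 CPM in Control (log2 fold change -0.61; SE 0.084; edgeR, adjusted p = 2.50e-05). Cdkn1c, for the CDK inhibitor p57, was abundant and not called, with 718 ± 25.2 CPM in the knockout and 731 ± 57.1 CPM in Control (-0.027), as was Gadd45b (-0.12). Of the genes named in these 4 lists as rising or falling, Dbf4, Pold3, Spc24, Stmn1, E2f2, E2f3, Myc, Rb1, Cdc25b, Wee1, Chek2, Gadd45a, Gadd45g, Sesn1, Sesn2 and Cdkn2d were called under each of the 25 alternatives, whereas Rfc2 and Ube2s were called under 11 each and Gins1 under 17. Over the 4 lists together, 6 of 144 genes tested rose and 25 fell with all libraries, or 4.17% and 17.4%, against 21.1% and 21.8% of all genes. Without Control library 6 13 rose, and without Control libraries 5 and 6 35 rose and 23 fell, or 24.3% and 16.0%, against 22.8% and 23.9% of all genes.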

How the data were processed

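RNA of EpCAM+ cells from lungs of mouse embryos at E17.5 was sequenced in 5 knockout and 6 Control libraries. The authors deposited raw counts per gene for all 11 libraries, in a table with no depth or quality values. Per the submitters' processing notes, the build was mm10, and HTSeq 2.0, Bowtie2 2.4.2, Trim Galore 0.4.2, DESeq2, FastQC, Picard 2.18.22 and SAMtools 1.10.0 are listed in no order; the role of each, the annotation and the strand setting are not stated. In the table, 27 rows have date-like symbols and 2 symbols stand on more than 1 row; none of these is a cell cycle gene.

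From the counts, edgeR 4.0.16 (R 4.3.3) with TMM scaling, filterByExpr and the robust quasi-likelihood test compared the groups over 13916 genes, with Benjamini-Hochberg adjustment and no covariate. CPM used TMM-scaled library sizes; log2 CPM had a prior count of 2. SE is the log2 fold change over the root of F, and the 95% interval uses the normal quantile. Alternatives used limma 3.58.1, DESeq2 1.42.0, other scalings and filters, covariates and left-out libraries, Control libraries 5 and 6 together among them. The fit was tested on simulated counts. Gene positions are from GENCODE M21 (mm10) and promoters from RefSeq (GRCm38.p6).

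The cell cycle genes and all other lists were chosen with earlier results of these data known. Genes named are those called with or without Control libraries 5 and 6, the most abundant of each role, and from each further list at most 4 called genes per direction by adjusted p and 2 abundant ones not called; some others are named for their role.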

Additional observations from a re-analysis of the deposited data

Results flagged for a closer look

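In 4 of 94 sets of values (47 genes in each of the 2 groups), a single library stood further from the rest of its group than Dixon's 95% limit, which chance gives in about 1 in 20 sets. Cdt1 was at 34.2 CPM in Control library 6, with the next highest Control library at 19.7 CPM. Mcm10 was at 14.3 CPM in the same library, with the next at 8.81 CPM. Ccne2 was at 2.31 CPM in Control library 1, with the next at 1.38 CPM. Ccnb2 was at 10.8 CPM in knockout library 2, with the next knockout library at 6.63 CPM.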

How the results depend on the processing

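At an adjusted p under 0.01, a stricter threshold that is not one of the 25 alternatives, 2 of the 5 cell cycle genes called lower, E2f1 and Pcna, and 2 of the 3 called higher, Ccnd2 and Rrm1, passed. Over the 25 alternatives the number of cell cycle genes called lower, 5 in the comparison as reported, was 3 with library size only and with upper-quartile factors, 2 without Control libraries 5 and 6, and 9 with the other mitotic genes as a covariate; leaving out 1 library at a time gave 3 (without knockout library 1 or 4) to 7. The number called higher, 3 as reported, was 14 without Control libraries 5 and 6, 7 with the mitotic covariate and 9 with the replicate block; leaving out 1 library gave 3 to 7, the 7 without Control library 6. The median log2 fold change of the 47 genes was 0.27 without Control libraries 5 and 6 and -0.24 to 0.073 leaving out 1 library, against -0.16. It was lowest, at -0.31, with the mesenchymal covariate. In that fit 2 of the 47 genes were called higher and 5 lower, and of all 13916 genes tested 2167 were higher and 2245 lower. Genes of the 4 further lists called higher, 6 as reported, were 11 with library size only, 10 with upper-quartile factors, 21 with the replicate block, 35 without Control libraries 5 and 6, 19 with the mitotic covariate and 6 to 13 leaving out 1 library; those called lower, 25 as reported, were 15 with library size only and 20 to 26 leaving out 1 library. Library size alone moved the median over all genes to 0.11 on the log2 scale, with 65.6% of calls higher, against 49.2% as reported and 57.9% with upper-quartile factors.

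The labels do not say whether replicate numbers pair the libraries, and the values do not settle it. Deviations of same-numbered libraries from their group means correlated at -0.061, 0.097, -0.052, 0.0079 and 0.27, and only number 5 correlated best with its own number. A replicate block over numbers 1 to 5, which leaves out Control library 6, gave 9 genes called higher and 5 lower and a median of 0.10. Of all 13839 genes tested, 3065 were called higher and 3105 lower with that block.

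Genes that changed sign were not called as reported, and those given here are examples. Over the 25 alternatives the log2 fold change ran from -0.69 to 0.19 for Mki67 and from -0.31 to 0.34 for Cdk1. It ran from -0.64 to 0.091 for Foxm1 and from -0.38 to 0.46 for Aurkb. Mcm3 was -0.055 with the Y-linked covariate, -0.086 with the mesenchymal covariate and -0.032 to 0.42 leaving out 1 library. Mcm4 was -0.059, -0.091 and -0.055 to 0.22 in the same order. Cdt1 was -0.059, -0.087 and -0.0059 to 0.34. Mcm7 was -0.020 and Ccne1 -0.13 with the mesenchymal covariate. Mcm5 was 0.18 with the replicate block, 0.51 without Control libraries 5 and 6, 0.045 with the mitotic covariate and -0.39 to 0.10 leaving out 1 library. Cenpf was 0.067 with library size only, 0.029 with upper-quartile factors, 0.12 with limma-voom, 0.11 with limma-voom and library weights, 0.34 with the replicate block, 0.53 without Control libraries 5 and 6, 0.19 with the mitotic covariate and -0.18 to 0.26 leaving out 1 library. The cause was not tested. Genes under about 5 CPM, such as Ccne1, Ccne2, Gins2 and Cdc25c, and Cdc45, rest on few counts, and only large differences in them could be seen at this depth.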
